A study of Saccharomyces cerevisiae with 180 samples.

Results

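The flocculin genes FLO1, FLO5, FLO9, FLO10 and FLO11 encode adhesins of the budding yeast cell wall. They were chosen by name, 5 of 6002 protein-coding genes, and every nucleosome whose centre lay in a coding region or up to 1000 bp upstream of its start codon was read. The atlas placed 137 nucleosomes there, of 66360 in all, and 136 of them had counts: 26 upstream and 110 in coding regions. The missing one lay near the end of the FLO11 coding region, 3925 bp from the start codon.

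Histone marks were mapped by combinatorial indexed chromatin immunoprecipitation of mononucleosomes from Saccharomyces cerevisiae grown in rich medium, in which chromatin cut with micrococcal nuclease met a first antibody and then a second antibody or Input. Input was read here as material of the first antibody alone, a reading the labels leave unstated. The 180 libraries came from 7 strains in 2 sets. Each combination of strain and antibodies was 1 library, so no value has a replicate and no difference was tested.

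Set 1 held 120 libraries from a strain with wild-type H3 (WT H3) and from strains whose H3 carried arginine in place of lysine 4 (H3K4R), lysine 18 (H3K18R) or lysine 36 (H3K36R). Each was taken with first antibodies against H3, K4me3, K18ac, K36me3 and K79me3. Set 2 held 60 libraries, without H3, from strains labelled bar1, set2 and eaf3. Set2 is the enzyme that methylates lysine 36 of H3, and Eaf3 reads that methylation as a subunit of the deacetylase Rpd3S and also belongs to the acetyltransferase NuA4. The labels do not say whether the histone strains also lack the normal H3 gene copies, or what else the strains share. The titles name the strain labelled bar1 as the wild type of set 2, and it is called the set 2 reference here: BAR1 itself held 1030 reads there, against 826 to 1846 in the other strains, whereas NAM7 held 6 reads against 1796 to 4320 elsewhere. SET2 held 57 reads in set2 and EAF3 held 92 in eaf3, where the other strains held 1981 to 4209 and 645 to 1299.

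Flocculins are secreted proteins anchored in the wall by a glycolipid remnant. FLO1, FLO5, FLO9 and FLO10 products bind mannose on neighbouring cells and make cells clump, and Flo11, also called Muc1, serves invasive growth, filaments and biofilms. The genes contain long tandem repeats, lie near chromosome ends, and are kept silent in most laboratory strains by repressors such as Tup1 with Cyc8 and by deacetylases, with Flo8 as an activator. On active yeast genes K4me3, made by Set1, marks nucleosomes after the start, K36me3, made by Set2 behind RNA polymerase, marks the body and the 3-prime part, K79me3, made by Dot1, covers the body, and K18ac accompanies promoters.

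FLO1 (YAR050W) spans chromosome I from 203403 to 208016 in the sacCer3 build and is read forward. FLO9 (YAL063C) lies near the other end of the same chromosome, from 24000 to 27968, and is read in reverse. FLO5 (YHR211W) spans chromosome VIII from 525392 to 528619, FLO10 (YKR102W) spans chromosome XI from 646356 to 649865, and both are read forward. FLO11 (YIR019C) spans chromosome IX from 389572 to 393675 in reverse. The distance to the nearest chromosome end ran from 18.2 kb for FLO10 to 47.6 kb for FLO11. Over all libraries the 5 windows held 13897 reads at FLO10, 14896 at FLO9, 17845 at FLO11, 18310 at FLO1 and 20231 at FLO5. FLO1, FLO5 and FLO9 share long near-identical stretches. How reads that fit several places were treated is not given in the sources used here, so values of these 3 genes are uncertain as to which of them a read came from.

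In WT H3 all 5 flocculin genes carried little K4me3 for their nucleosomes, while K36me3 and K79me3 were near the level of other genes. The K4me3 library, of 758641 reads, held 105 reads at FLO1, 47 at FLO5, 110 at FLO9, 12 at FLO10 and 60 at FLO11. The H3 library, of 187203 reads, held 74, 68, 65, 70 and 68 in the same order. H3 was thus alike over the 5 genes, and FLO10 was the lowest in K4me3 and FLO9 the highest.

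A level here is the log2 ratio of a mark's CPM (reads scaled to the library total), plus 1, over those of H3, with a 95% interval that covers counting error only. The K4me3 level was -1.51 for FLO1 (interval -1.96 to -1.06) and -1.25 for FLO9 (-1.72 to -0.79). It was -2.53 for FLO5 (-3.12 to -1.99) and -2.19 for FLO11 (-2.72 to -1.68), whose intervals overlapped, and -4.48 for FLO10 (-5.58 to -3.67), whose interval lay below those of the other 4 genes. All 5 were 2-fold or more lower than H3, which held for 8.96% of 5759 genes with at least 50 reads in both libraries together. The median gene stood at 0.36. The gap of FLO10 to the other genes rests on its 12 K4me3 reads in 1 library. In the set 2 reference, which has no H3 library, FLO10 held 58 K4me3 reads. FLO1 held 66 there, FLO5 69, FLO9 120 and FLO11 62.

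K18ac was lower at the flocculin genes than at the median gene, by less than K4me3. The K18ac library held 335 reads at FLO1, 190 at FLO5, 318 at FLO9, 248 at FLO10 and 284 at FLO11. Levels ran from -0.99 at FLO5 (-1.40 to -0.57) to -0.18 at FLO9 (-0.57 to 0.22), and the median gene stood at 0.23. None of the 5 was past 2-fold in either direction, against 15.1% of all genes.

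K36me3 and K79me3 were present on the same genes. The K36me3 library held 935 reads at FLO1, 1163 at FLO5, 580 at FLO9, 696 at FLO10 and 901 at FLO11. The K36me3 level was highest at FLO5, 0.35, with an interval from just under 0 to 0.73, and lowest at FLO9, -0.58 (-0.96 to -0.19). These lay around a median gene of -0.17. K79me3 followed the same order at both extremes, with 0.13 at FLO5 (-0.23 to 0.52) and -0.54 at FLO9 (-0.92 to -0.13). None of the 5 was past 2-fold, against 22.3% of all genes for K36me3 and 12.9% for K79me3.

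**Figure D1:**
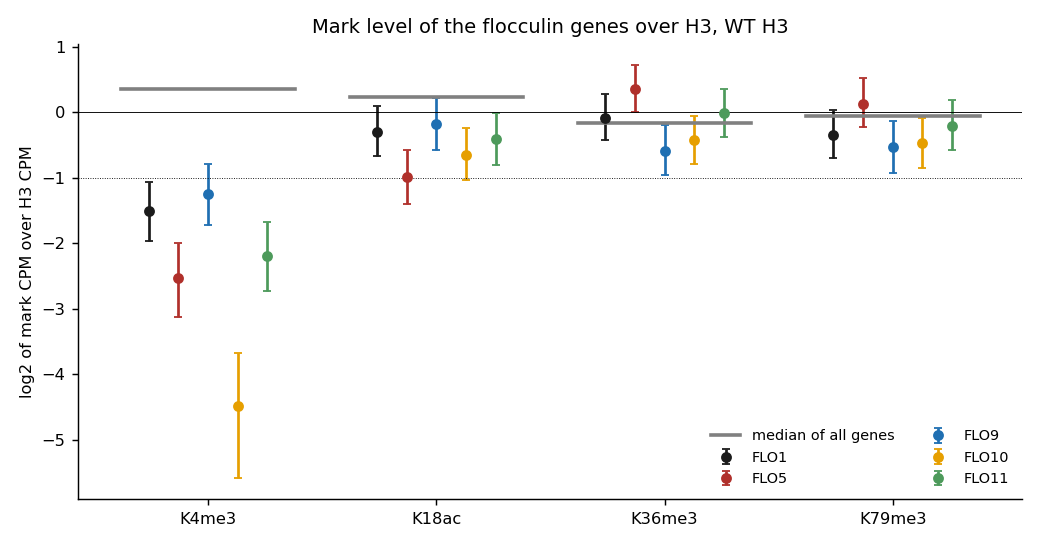
Level of each mark over H3 in WT H3 (vertical axis, log2 of mark CPM over H3 CPM) for the 5 flocculin genes, by mark on the horizontal axis. Points are single libraries, bars are 95% counting intervals, grey lines are the median of all genes and the dotted line is a 2-fold lower level. K4me3 lies below the dotted line for all 5 genes and lowest for FLO10 at -4.48, while K36me3 and K79me3 lie around the grey lines.

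Low K4me3 was more frequent near chromosome ends, where the flocculin genes lie. Of 603 genes within 50 kb of an end, 166, or 27.5%, were 2-fold lower in K4me3 than in H3, with a median of -0.15. Among other genes of mannoproteins of the wall and of sexual adhesion, 7 of 18 with enough reads were lower and 2 were higher, with a median of -0.81. FIG2, a mating adhesin, stood at -1.38, SAG1, the alpha-agglutinin, at -1.35 and HPF1, a wall glycoprotein, at -0.84, while AGA1, the anchor subunit of a-agglutinin, stood at -0.10. SED1 at 1.75 and CCW14 at 1.13, both genes of wall glycoproteins, were on the other side. SED1 rests on 14 H3 reads and CCW14 on 15.

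The regulators of flocculin genes did not share the low K4me3, with 1 exception. Of 22 regulators, FLO8 was not among the protein-coding genes because the RefSeq table lists it as a pseudogene, and whether these strains carry a working FLO8 is not given in the sources used here. Of the other 21, MGA1 was 2-fold lower in K4me3 at -2.20, named after its value was seen, 3 were higher, against 20.1% of all genes, and their median was 0.53. The repressor genes TUP1 and CYC8 stood at 1.10 and 0.59 in K4me3 and at 1.01 and 0.87 in K36me3. The repressor gene SFL1 stood at 0.68 and 1.01, the deacetylase genes HDA1 and HST1 at -0.14 and 1.15 in K4me3, and the activator gene MIT1 at 1.04.

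The 5-prime parts of the flocculin genes were nearly empty of K4me3. Over the first 1000 bp of coding region the K4me3 library held 8 reads at FLO1, 9 at FLO5, 3 at FLO9, 2 at FLO10 and 7 at FLO11, on 5 nucleosomes at FLO1 and 6 at each of the others. H3 held 23, 16, 16, 21 and 15 reads there. The levels were -3.42 (-4.91 to -2.33), -2.75 (-4.21 to -1.58), -4.13 (-6.85 to -2.63), -4.96 (-8.55 to -3.38) and -2.99 (-4.65 to -1.74), where the median gene stood at 0.79. With at least 20 reads in each comparison, 7.58% of 5357 genes were 2-fold lower in this window. FLO9 missed that minimum by 1 read, and the other 4 were lower.

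K36me3 covered the same nucleosomes. It held 233 reads at FLO1, 308 at FLO5, 177 at FLO9, 234 at FLO10 and 167 at FLO11 in the first 1000 bp, with levels from -0.40 to 0.52 and a median gene of -0.20. Low K4me3 with K36me3 that was not 2-fold low was found in this window at 2.15% of the 5357 genes and at all 4 flocculin genes that could be read. From 1000 bp upstream to 1000 bp downstream of the start codon the 5 genes had 55 counted nucleosomes, of which 21 held no K4me3 read and 47 held at most 2. Over all nucleosomes of the atlas with counts, 5.93% held none and 24.3% held at most 2.

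Towards the 3-prime ends K4me3 rose, the reverse of the usual order. In the last 1000 bp of coding region it held 62 reads at FLO1, 23 at FLO5, 85 at FLO9, 7 at FLO10 and 23 at FLO11. The richest nucleosome of each gene was 1 of its last 2 counted ones. At FLO9 it held 27 reads, 176 bp before the stop codon at chromosome I 24101 to 24251. At FLO1 it held 16 reads, 180 bp before the stop codon at chromosome I 207761 to 207911. FLO5 had its maximum of 9 reads 164 bp before the stop codon and FLO11 its 8 reads at 20 bp, whereas the FLO10 maximum was 3 reads.

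Per nucleosome, the log2 ratio of the last over the first 1000 bp was 2.62 at FLO1 (1.62 to 3.97), 1.31 at FLO5 (0.19 to 2.65), 4.61 at FLO9 (3.23 to 7.13) and 1.91 at FLO11 (0.71 to 3.44). It was 1.58 at FLO10, with an interval from -0.59 to 5.11 on 9 reads, under the minimum of 20. The median gene of at least 2000 bp stood at -2.85, and 3.12% of 1315 such genes were 2-fold higher at the end. The end windows and this ratio were chosen after the profiles had been seen, so the 4 flocculin genes past 2-fold are a description of that shape. Over the last 1000 bp the level over H3 reached 0.13 at FLO1 and 0.58 at FLO9, near the median gene of 0.02, and stayed at -1.27 at FLO5, -1.17 at FLO11 and -2.89 at FLO10.

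K18ac leaned the same way. It held 36 reads in the first and 151 in the last 1000 bp of FLO1, and 52 and 172 at FLO9. The log2 ratios were 1.79 (1.27 to 2.37) and 1.72 (1.27 to 2.20), and those of FLO5, FLO10 and FLO11 were 0.45, 0.57 and 0.95, against a median gene of -0.70. FLO1 and FLO9 were past 2-fold, as were 1.66% of 1324 genes. The richest K18ac nucleosome of FLO1, FLO5 and FLO9 was the one richest in K4me3, with 37, 20 and 41 reads.

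K36me3 ran the other way on 3 of the 5 genes. At FLO1 it held 233 reads in the first and 77 in the last 1000 bp, at FLO9 177 and 85, and at FLO10 234 and 109. The log2 ratios were -1.85 (-2.25 to -1.48), -1.05 (-1.45 to -0.68) and -1.10 (-1.44 to -0.77), where the median gene rose by 0.50 and 0.755% of genes were 2-fold lower. FLO5 at -0.23 and FLO11 at 0.11 were near even. These ratios were not divided by H3. The H3 ratio was -0.96 at FLO1 (-2.05 to 0.04), -0.19 at FLO9 and -0.57 at FLO10, with a median gene of 0.12. Between the same windows the K36me3 level over H3 went from -0.40 to -1.26 at FLO1. It went from -0.27 to -1.12 at FLO9 and from -0.26 to -0.77 at FLO10, falls of less than 2-fold at all 3. K36me3 was not simply highest at the start: at FLO1 its richest nucleosome, with 78 reads, lay 3243 bp from the start codon, and at FLO11 the richest, with 51 reads, lay at 2858 bp. From there to the last nucleosome of FLO1, K36me3 went from 78 reads to 4 and K4me3 from 7 to 11.

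K79me3 at FLO1 held 129 reads in the first and 61 in the last 1000 bp, a log2 ratio of -1.34 (-1.81 to -0.89). The other 4 genes lay between -0.82 at FLO5 and -0.13 at FLO9, and the median gene at 0.09. FLO1 alone of the 5 was past 2-fold, against 1.06% of genes. This ratio was not divided by H3, whose own ratio at FLO1 was -0.96 (-2.05 to 0.04). Over H3 the K79me3 level of FLO1 went from -0.47 in the first to -0.82 in the last 1000 bp.

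**Figure D2:**
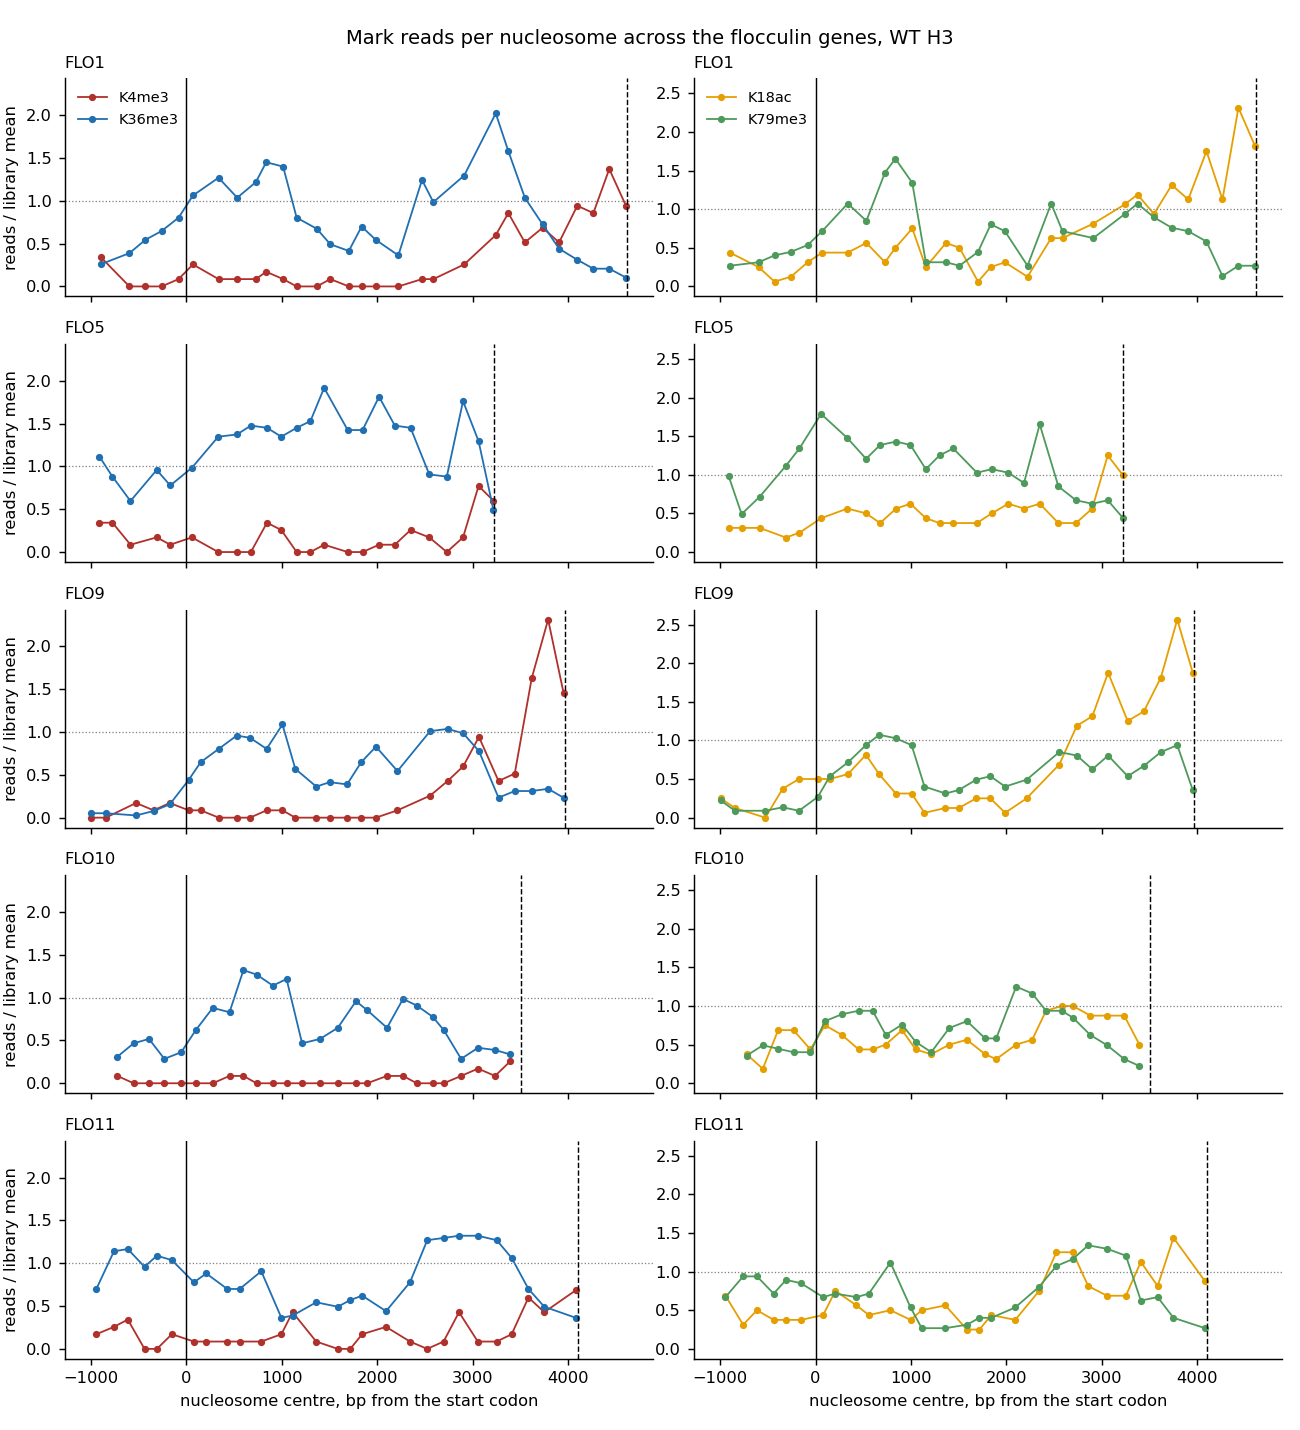
Reads of each mark per nucleosome, divided by the library's mean over all nucleosomes (vertical axes), along the 5 flocculin genes in WT H3; the horizontal axes give the distance of the nucleosome centre from the start codon in bp. Points are nucleosomes in 1 library, the solid line is the start codon, the dashed line the stop codon and the dotted line the mean of all nucleosomes. K4me3 and K18ac rise towards the stop codon of FLO1 and FLO9, with K4me3 maxima of 16 and 27 reads, while K36me3 covers the start and the middle and falls at the end.

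The neighbours differed between the genes with the 3-prime K4me3. The next gene downstream began 1314 bp beyond FLO9, where YAL063C-A is read in the same direction, and 12181 bp beyond FLO1. The distance was 10122 bp at FLO5, 3214 bp at FLO10 and 3870 bp at FLO11. The part of neighbouring transcription in these reads was not tested.

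Upstream of the start codons K4me3 was low at all 5 genes, with 0 to 3 reads per gene in the 500 bp before the start codon. K36me3 was lowest at FLO9 there. In the outer 500 bp of the upstream window it held 5 reads at FLO9, 25 at FLO1, 30 at FLO10, 100 at FLO5 and 116 at FLO11. The levels were -3.68 at FLO9 and -0.06 at FLO11, and the median gene stood at -0.23. The window of FLO11 reached into YIR020C, which is read in the same direction and ends 579 bp upstream. At the other 4 genes the nearest upstream gene lay 3598 to 7217 bp away.

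Coverage dipped inside 3 of the coding regions, in a stretch also chosen after seeing the reads. Over all 180 libraries the nucleosomes 1100 to 2300 bp from the start codon held 386 reads on average at FLO1, against 762 in the rest of the coding region. The means were 398 against 689 at FLO9 and 476 against 718 at FLO11. FLO5 had no dip, with 1051 against 843, nor did FLO10, with 595 against 594. The H3 libraries of the 4 set 1 strains dipped too, with a ratio of 0.335 at FLO1, 0.462 at FLO9 and 0.502 at FLO11, against 0.734 at FLO10 and 0.802 at FLO5. The part of the tandem repeats in the dip was not tested. Levels over H3 share the dip in both terms.

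In the set 2 reference the K4me3 ratio of end over start was above 0 at the 5 genes, and smaller than in WT H3. Its K4me3 library, of 585353 reads, held 10, 12, 14, 11 and 15 reads in the first 1000 bp of FLO1, FLO5, FLO9, FLO10 and FLO11 and 30, 20, 76, 20 and 16 in the last. The log2 ratio was 2.40 at FLO9 (1.61 to 3.38) and 1.28 at FLO1 (0.25 to 2.52). The other 3 lay between 0.35 and 0.83, with intervals that included 0. FLO1 and FLO9 were past 2-fold, against 2.19% of genes, and the median gene stood at -1.61. The K18ac ratio was larger than in WT H3 at FLO9, 2.02 against 1.72, and at FLO5, 0.88 against 0.45, and smaller at FLO1, 1.02 against 1.79, at FLO10, -0.03 against 0.57, and at FLO11, 0.27 against 0.95. K36me3 ratios were below 0 at all 5 genes, from -0.28 at FLO11 to -1.80 at FLO9, with intervals that included 0 at FLO10 and FLO11. They were lower than in WT H3 at FLO5, FLO9 and FLO11.

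Both reference strains were set against each other as a measure of how far a value can move without a mutation in H3, Set2 or Eaf3. K4me3 was higher in the set 2 reference than in WT H3 at FLO10, 58 reads against 12, a log2 difference of 2.57 (1.73 to 3.68), and at FLO5, 69 against 47, a difference of 0.92 (0.37 to 1.49). FLO1, FLO9 and FLO11 differed by -0.29, 0.50 and 0.42. FLO10 alone was past 2-fold, against 1.14% of genes. K18ac was higher in the set 2 reference at all 5 genes, by 0.31 to 0.88. These strains also differ in set and library, and the sources of their difference cannot be told apart.

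In H3K36R, whose H3 carried arginine in place of lysine 36, K4me3 was higher at FLO5 and FLO10. FLO5 held 221 reads against 47 in WT H3, a log2 change of 1.71 (1.26 to 2.21), and FLO10 held 85 against 12, a change of 2.25 (1.44 to 3.32). FLO11 held 136 against 60, a change of 0.66 (0.22 to 1.13). FLO9, with 198 against 110, and FLO1, with 152 against 105, had intervals that included 0 and values of 0.34 and 0.02. Past 2-fold were 2 of 5, against 0.553% of 5785 genes, and the median gene stood at -0.05. The FLO10 change was smaller than its difference between both reference strains, and the FLO5 change was larger than its own.

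The same material taken through K4me3 a second time gave values of the same sign. There FLO5 held 153 reads against 26, a change of 1.87, FLO10 51 against 10, FLO11 92 against 19, FLO9 185 against 77 and FLO1 127 against 55. Over the 8 combinations with K4me3 in either step and no K36me3, all with at least 10000 reads, FLO5 and FLO11 were higher in 8 of 8 and FLO1, FLO9 and FLO10 in 6 of 8. These libraries share first-antibody material and are not replicates.

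The gain at FLO5 lay in the middle and at the end of its coding region. Between the first and the last 1000 bp K4me3 went from 3 to 78 reads, a change of 3.89 (2.59 to 6.50). In the last 1000 bp it went from 23 to 126, a change of 1.91 (1.30 to 2.65), and the first 1000 bp held 9 reads in both strains, the H3K36R library being deeper with 1079550 reads. The middle of FLO10 went from 2 to 40 reads, a change of 3.39 (1.87 to 6.91), that of FLO9 from 17 to 74 (1.57), that of FLO11 from 19 to 60 (1.12) and that of FLO1 from 30 to 60 (0.48). The median gene stood at 0.64 in the middle, so FLO1 alone of the 5 was below it. At its ends FLO10 went from 7 to 34 in the last and from 2 to 8 in the first window. FLO1, with 62 and 78, and FLO9, with 85 and 112, changed by -0.18 and -0.11 at their ends. Among genes of at least 2000 bp the median end window changed by 0.54 in this strain. FLO5 and FLO10 were past 2-fold there, 2 of 5, against 28.7% of 1205 such genes, so a higher end window was common in this strain. The K4me3 ratio of end over start in H3K36R was 3.74 at FLO5, 3.73 at FLO9, 2.78 at FLO1, 2.02 at FLO10 and 1.91 at FLO11. All 5 were past 2-fold, against 3.41% of genes.

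Of the marks other than K36me3, K18ac and K79me3 stayed within 2-fold in H3K36R. K18ac changed by 0.66 at FLO5 (0.40 to 0.92), by 0.41 at FLO10, 0.39 at FLO11, 0.23 at FLO1 and -0.11 at FLO9. In size, 4 of the 5 changes were below the difference of the same gene between both reference strains, and FLO11 was the exception. K79me3 changed by -0.35 to 0.05, and H3 by -0.34 to 0.30. The K36me3 antibody left 35 to 49 reads per gene in this strain, against 580 to 1163 in WT H3, from a library of 434317 reads.

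In set2, K4me3 was higher than in the set 2 reference at 4 of the 5 genes. The reference also differs from set2 and eaf3 at NAM7, with 6 reads against 1796 and 4095. The parts of NAM7 and of SET2 or EAF3 in these changes cannot be told apart. It held 183 reads against 66 at FLO1, 201 against 69 at FLO5, 203 against 120 at FLO9, 177 against 58 at FLO10 and 195 against 62 at FLO11. The changes were 0.93, 1.00, 0.23, 1.07 and 1.11, with intervals above 0 at all but FLO9 (-0.11 to 0.56). FLO5, FLO10 and FLO11 were past 2-fold, 3 of 5, against 1.49% of 5901 genes, and the median gene stood at -0.11. At genes of at least 2000 bp the median change was -0.19 in the first and 0.79 in the last 1000 bp. The share over whole windows thus does not describe the gene ends, where higher K4me3 was common in this strain. In FLO5 the change just passed the 2-fold line.

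The strain eaf3 gave a similar picture with deeper libraries. K4me3 held 392 reads at FLO1, 403 at FLO9, 333 at FLO10 and 328 at FLO11, in a library of 1686250 reads. FLO5 stood at 296 CPM in eaf3 and at 118 CPM in the set 2 reference. The changes were 1.04 at FLO1 (0.66 to 1.44), 1.32 at FLO5 (0.96 to 1.71) and 0.22 at FLO9 (-0.08 to 0.53). They were 0.99 at FLO10 (0.59 to 1.42) and 0.87 at FLO11 (0.48 to 1.29). FLO1 and FLO5 were past 2-fold, 2 of 5, against 1.56% of 5964 genes, and FLO10 lay just under the line. Here too the median change at genes of at least 2000 bp was -0.23 in the first and 0.86 in the last 1000 bp. Both set2 and eaf3 were read against the same reference libraries, so their values are not independent of each other. FLO9 had the smallest change of the 5 in both.

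In set2 the K4me3 of the first 1000 bp of coding region changed by -0.04 at FLO1 and by 0.71 to 0.96 at the other 4 genes, with intervals that included 0 at all but FLO11. The reads there went from 10 to 14 at FLO1, 12 to 29 at FLO5, 14 to 34 at FLO9, 11 to 27 at FLO10 and 15 to 43 at FLO11. The last 1000 bp went from 30 to 51 at FLO1, 20 to 70 at FLO5, 76 to 94 at FLO9, 20 to 51 at FLO10 and 16 to 49 at FLO11, changes of 0.23, 1.25, -0.22, 0.80 and 1.06, where the median gene stood at 0.79. Both ends of FLO5, FLO10 and FLO11 thus had positive values, and FLO9 had one at its start alone. The end over start ratio was 1.57 at FLO1, 1.26 at FLO5, 1.45 at FLO9, 0.91 at FLO10 and 0.45 at FLO11. Past 2-fold were 3 of 5, against 1.66% of genes, with a median gene of -0.60. In eaf3 it was 1.52, 1.11, 1.46, 0.20 and 0.64, again 3 of 5, against 1.28%, with a median gene of -0.52.

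K36me3 in eaf3 was lower at all 5 genes relative to the rest of the library. It held 178 reads against 110 at FLO1, 306 against 137 at FLO5, 162 against 74 at FLO9, 179 against 110 at FLO10 and 207 against 114 at FLO11, in a library of 1016485 against one of 348217 reads. The changes were -0.85 (-1.20 to -0.49) at FLO1, -0.84 (-1.19 to -0.49) at FLO10, -0.68 (-1.02 to -0.34) at FLO11, -0.41 at FLO9 and -0.39 at FLO5. The median gene stood at 0.04, and no flocculin gene was past 2-fold, against 0.586% of genes. K18ac changed by -0.07 to 0.34 in set2 and by 0.06 to 0.61 in eaf3, the latter at FLO11 (0.45 to 0.78). For K79me3 the set 2 reference held 10044 reads in all and 0 to 4 per flocculin gene, so no change is given: set2 held 192 to 250 reads and eaf3 26 to 47.

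**Figure D3:**
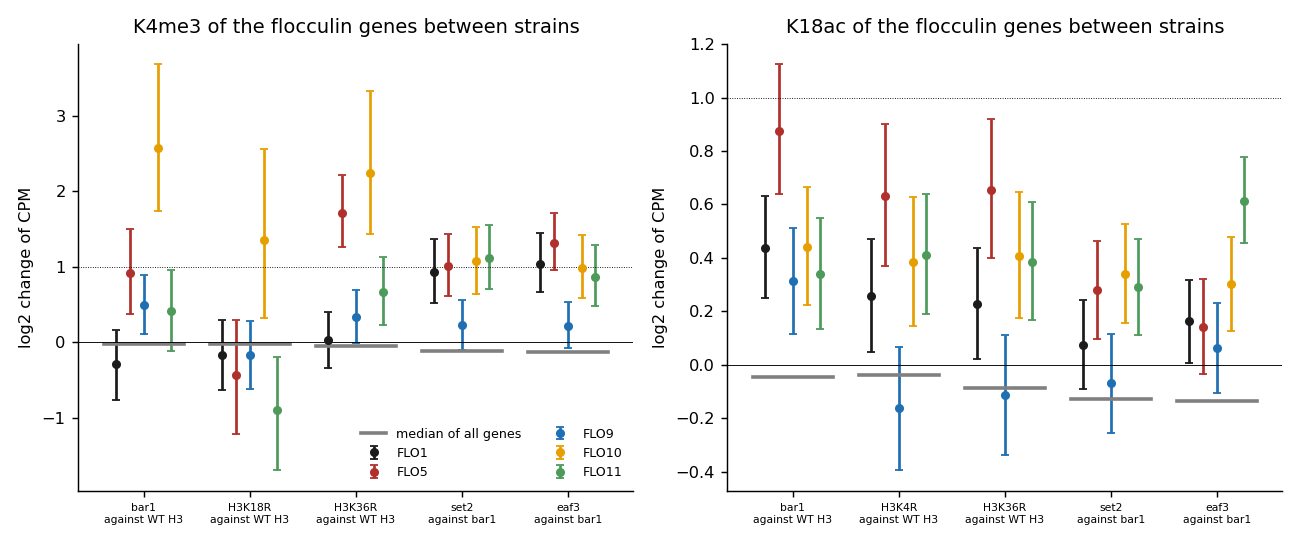
Change of K4me3 (left) and K18ac (right) at the 5 flocculin genes between 2 strains, as the log2 ratio of CPM on the vertical axes; the first position compares both reference strains. Points are single pairs of libraries, bars are 95% counting intervals, grey lines the median of all genes and the dotted line a 2-fold higher value. FLO10 moved by 2.57 between the reference strains, more than in any mutant strain shown, and FLO9 was highest at 0.50, in that same comparison.

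In H3K4R no K4me3 could be read: its K4me3 library held 3639 reads and 0 to 4 per flocculin gene. K18ac changed by 0.63 at FLO5 (0.37 to 0.90), 0.41 at FLO11, 0.38 at FLO10, 0.26 at FLO1 and -0.16 at FLO9. Its lean to the gene end was weaker than in WT H3 at FLO1, with 86 reads in the first and 122 in the last 1000 bp, a log2 ratio of 0.24 (-0.17 to 0.66) against 1.79. At FLO9 it was 0.75 (0.27 to 1.25) against 1.72, and at FLO11 -0.29 against 0.95, while FLO5 went from 0.45 to 0.73. A weaker lean than in WT H3 was not limited to H3K4R. In the set 2 reference, H3K36R, set2 and eaf3 the ratio was 1.02, 1.09, 0.86 and 0.66 at FLO1. In the same order it was 0.27, 0.60, 0.52 and -0.23 at FLO11, and 2.02, 2.38, 0.29 and 0.81 at FLO9. None of the 5 was past 2-fold in H3K4R, against 1.13% of genes. The median gene moved the other way, from -0.70 to -0.19. In the end window K18ac changed by -0.90 at FLO9, -0.40 at FLO1, -0.31 at FLO11, 0.17 at FLO10 and 0.65 at FLO5, where the median gene stood at 0.33. In the start window it changed by 1.14 at FLO1, from 36 to 86 reads, by 0.92 at FLO11, from 49 to 100, by 0.44 at FLO10, 0.37 at FLO5 and 0.06 at FLO9, where the median gene stood at -0.12. The change in lean thus came mainly from the start at FLO1 and FLO11 and from the end at FLO9.

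The K36me3 of H3K4R changed by -0.30 to 0.32 and K79me3 by -0.74 to 0.12. The lowest K79me3 change was at FLO9, with 219 reads against 348.

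In H3K18R K4me3 did not move together. FLO10 held 22 reads against 12, a change of 1.35 (0.33 to 2.55), and FLO11 22 against 60, a change of -0.90 (-1.69 to -0.19). FLO10 alone of the 5 was 2-fold higher, against 0.365% of genes, and its 34 reads in both libraries together were under the minimum of 50. In the library taken through K4me3 a second time FLO11 held 29 reads against 19, a change of 1.22, so its direction was not the same in both libraries. K36me3 changed by -0.08 to 0.30 and K79me3 by -0.09 to 0.31. K18ac left 10 to 21 reads per gene in this strain.

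**Figure D4:**
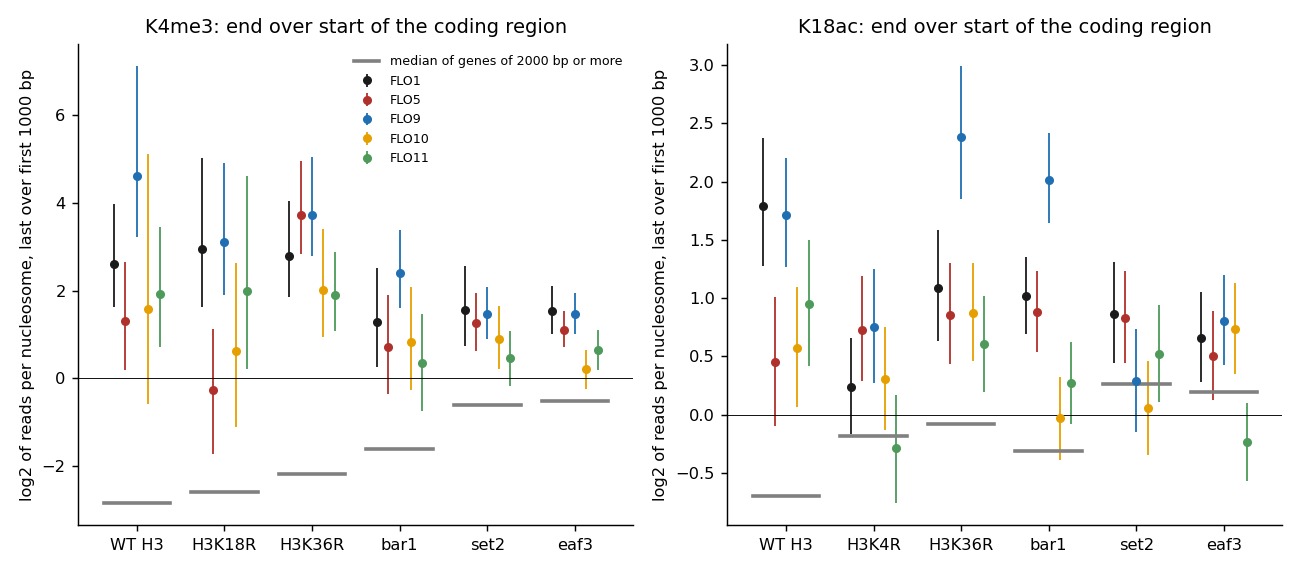
Log2 ratio of reads per nucleosome in the last over the first 1000 bp of the coding region (vertical axes), for K4me3 (left) and K18ac (right), by strain. Points are the 5 flocculin genes in single libraries, bars are 95% counting intervals and grey lines the median of genes of at least 2000 bp. In WT H3 the K4me3 ratio is above 0 for all 5 genes, up to 4.61 at FLO9, where the median gene is at -2.85. For K18ac the ratio of FLO1 is 1.79 in WT H3 and 0.24 in H3K4R. In the other strains shown it lies between 0.66 in eaf3 and 1.09 in H3K36R.

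Pairs of marks were read in WT H3 from the libraries with a second antibody, in both orders. Pairs with K4me3 were low, and the pair of K36me3 and K79me3 was near other genes. K36me3 then K79me3 was the deepest, with 226 reads at FLO1, 285 at FLO5, 151 at FLO9, 118 at FLO10 and 225 at FLO11, and the other order held 61, 113, 40, 40 and 65. The mean log2 level of both orders over H3 was 0.25 at FLO5 and -1.17 at FLO10, with a median of -0.48. FLO10 alone was 2-fold lower, against 11.8% of genes.

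K4me3 with K36me3 held 2 to 6 reads per gene with K4me3 first and 22 to 58 with K36me3 first. The latter order gave 49 reads at FLO1, 53 at FLO5, 58 at FLO9, 22 at FLO10 and 32 at FLO11. Its whole library held 383876 reads in WT H3 and 390200 in H3K36R, where lysine 36 is replaced. Reads of this order, and so the mean of both orders, need not come from nucleosomes with both marks. The median of both orders was -2.42 and all 5 were 2-fold lower, against 16.6% of genes. K4me3 with K79me3 held 0 to 11 reads with K4me3 first and 4 to 23 with K79me3 first. Its median was -2.40, and all 5 were 2-fold lower, against 12.7% of genes. FLO10 held 0 reads of 84086 with K4me3 first, which a floor of 3 reads turns into a level at least 10.5-fold lower than H3, and the median was -2.40 with FLO10 set to that floor as well.

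K4me3 with K18ac held 1 to 9 reads with K4me3 first and 32, 18, 36, 12 and 7 at FLO1, FLO5, FLO9, FLO10 and FLO11 with K18ac first. Its median was -1.82, and 4 of 5 were 2-fold lower, against 18.7% of genes. FLO9, with 9 and 36 reads, was the exception at -0.84. Relative to K18ac alone, K18ac then K4me3 was lower at all 5 genes, from -0.66 at FLO9 to -2.83 at FLO11, where the median gene stood at 0.08.

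The pairs of K18ac with K36me3 and with K79me3 rest on 3 to 24 and 2 to 22 reads per gene and order. The medians were -0.62 and -1.08. The number past 2-fold was 1 of 5 against 13% of genes, and 3 of 5 against 11.6%. Both orders differed at single genes: K18ac then K79me3 held 14 reads at FLO11 at a level of -1.15, and K79me3 then K18ac held 17 at 0.62. At this depth these 2 pairs do not order the genes.

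**Figure D5:**
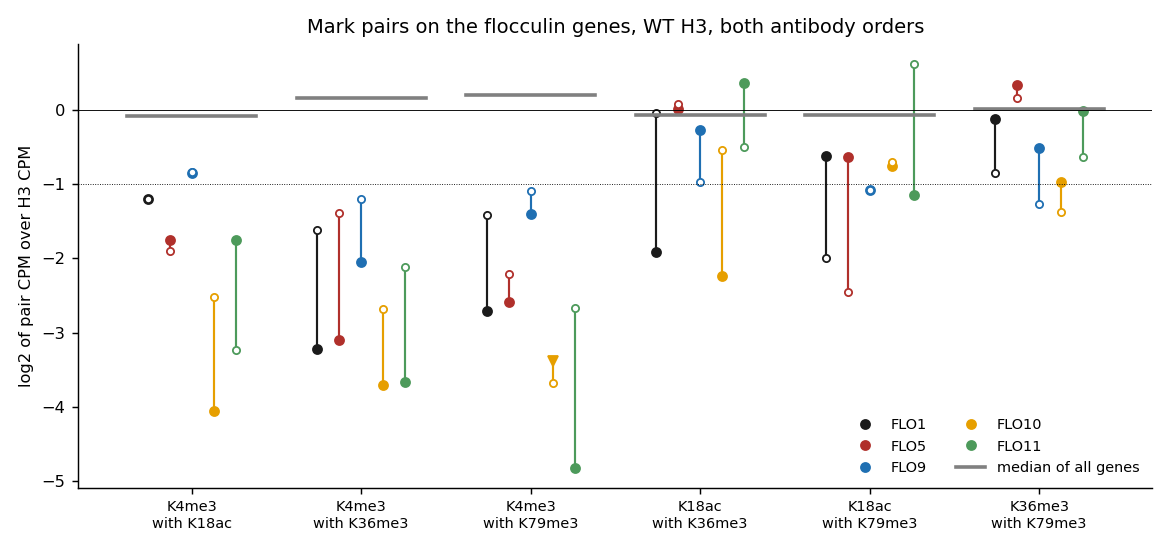
Level of each mark pair over H3 in WT H3 (vertical axis, log2 of pair CPM over H3 CPM) for the 5 flocculin genes. Filled points have the mark named first as first antibody and open points the other order, a line joins both, grey lines are the median of all genes, the dotted line is 2-fold lower and the triangle is the floor of 3 reads for FLO10, which held 0. Pairs with K4me3 lie below the grey lines at every gene, with FLO9 the highest at -0.84 to -1.62 as the mean of both orders, while K36me3 with K79me3 lies between -1.17 and 0.25.

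Across the 44 libraries of both reference strains with at least 10000 reads, the flocculin genes varied together to unequal degrees. After the median gene of each library was taken off, Pearson's r was 0.80 between FLO10 and FLO11, 0.68 between FLO1 and FLO10, 0.66 between FLO9 and FLO10 and 0.63 between FLO1 and FLO11. It was 0.53 between FLO1 and FLO9 and 0.58 between FLO1 and FLO5, and 0.31 between FLO5 and FLO9. Of 4961 other genes, those most like FLO1 were DUR12 at 0.86 and YEL077C at 0.81. FLO5 was nearest to SLH1 and YCS4, both at 0.92, FLO9 to YIL177C at 0.93 and YLL066C at 0.92, FLO10 to YOR192C-C at 0.93 and MRX10 at 0.84, and FLO11 to PGM2 at 0.93 and FRE3 at 0.89. YEL077C, YIL177C, YLL066C and FRE3 lie within 50 kb of a chromosome end. The median r with all genes was 0.03 to 0.11. The libraries share strains, first antibodies and depth, so these values describe a likeness of mark profile only.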

How the data were processed

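The values deposited by the authors are raw read counts per library and nucleosome, each nucleosome being an interval of equal width. Reads were aligned with Bowtie2 to sacCer3, per the submitters' processing notes; its version and the handling of duplicates and of reads with several matches are not given in the sources used here. Depth ran from 150 to 2693698 reads per library (median 110476.5), and 32 libraries held under 10000. Gene positions came from a RefSeq table of the same build; strand was taken from the systematic gene name, where W is forward and C reverse; 96.4% of lengths were multiples of 3, so they are coding lengths. Nucleosomes were placed by their centre, and neighbouring genes can share upstream nucleosomes.

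Values between 2 libraries are log2 ratios of CPM + 1, with exact conditional 95% intervals (Python 3.11.15, NumPy 2.4.6, pandas 2.3.3, SciPy 1.17.1, matplotlib 3.10.9) that cover counting error only. Ratios of the last over the first 1000 bp instead compare reads per nucleosome within 1 library, with intervals of the same kind. A fraction of a read was added to each window for them, and H3 was not divided out. If duplicate reads were kept the intervals are too narrow. The pseudocount understates differences of weakly covered genes. Genes needed 50 reads in both libraries together, or 20 for windows, and a 2-fold ratio was called. With 1 library per group there is no test. Main libraries were those with Input as second step. Groups came from titles and strain labels. The members and gene lists were chosen with earlier results of these data known, and the end windows and the low-coverage stretch after seeing profiles. The genes named from each list were the 4 with the most reads over all libraries and at most 3 whose K4me3 or K36me3 level was past 2-fold on the side opposite to the flocculin median. Likeness named the 2 genes of highest r among those with at least 2000 reads; the plan counted on 50 libraries and 44 held at least 10000 reads. The ratio and its interval were tested on simulated data. Alternatives changed the H3 reference, second step, scaling, pseudocount, window and filters.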

Additional observations from a re-analysis of the deposited data

How the results depend on the processing

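No paired analysis was possible because each group holds 1 library. For the same reason no library was left out in turn, and no result has a test. Of the flocculin medians under the alternatives, 154 moved by less than their spread and 48 moved. Of single genes 901 stayed, 107 moved and 2 reversed. Reversed was called only where the main value was 2-fold or more, so smaller values that changed sign could count as moved. Among the moved medians, K4me3 in H3K36R went from 0.66 to -0.43 upstream and K18ac in set2 from 0.28 to -0.24 upstream. K18ac in eaf3 went from 0.16 to -0.032 with second steps summed, and the K36me3 level from -0.085 to 0.081 with median-of-ratios scaling. Of the 154 medians and 901 genes, 20 and 100 came from keeping only libraries of at least 10000 reads. That filter keeps or drops a library and cannot change a kept value, so those 20 and 100 do not speak to stability. The cause of a move was not tested. K4me3 low over H3 kept its direction in each alternative run.

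With the H3-then-H3 library as reference, flocculin medians over H3 in WT H3 were -2.63 for K4me3, -0.80 for K18ac, -0.42 for K36me3 and -0.67 for K79me3. For pairs they were -2.76 for K4me3 with K36me3, -1.13 for K18ac with K36me3, -1.64 for K18ac with K79me3 and -0.82 for K36me3 with K79me3. With the mean H3 of 4 strains K36me3 was -0.26 and K36me3 with K79me3 -0.66. With median-of-ratios scaling K4me3 was -2.55, K18ac -0.64 and K36me3 0.081, and the change of K18ac was 0.41 in set2 and 0.30 in eaf3. With all second steps summed the K4me3 level was -2.58. So summed, the median change of K4me3 was 1.01 in H3K36R and 0.82 in eaf3, of K36me3 -0.056 and K79me3 -0.11 in H3K4R, of K79me3 0.11 in H3K18R, and of K18ac 0.082 in set2 and -0.032 in eaf3.

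In the coding region alone K18ac was -0.14, K79me3 -0.16, K4me3 with K18ac -1.38, K4me3 with K79me3 -1.96 and K18ac with K36me3 -0.30, and K4me3 changed by 1.22 in set2. In the 1000 bp upstream alone levels were -3.21 for K4me3, -1.80 for K18ac, -0.96 for K36me3 and -0.97 for K79me3. The pairs were -4.69 for K4me3 with K18ac, -4.59 with K36me3 and -4.84 with K79me3, -3.53 for K18ac with K36me3, -3.57 with K79me3 and -1.37 for K36me3 with K79me3. Upstream changes were 0.23 for K18ac and -0.50 for K36me3 in H3K4R, -0.66 for K4me3 in H3K18R, -0.43 for K4me3 and 0.030 for K18ac in H3K36R, 0.45 for K4me3 and -0.24 for K18ac in set2, and 0.71 for K4me3 and 0.047 for K18ac in eaf3. FLO5 reversed there for K4me3, to -0.9997 in H3K36R and -0.35 in set2.

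With at least 200 reads per gene the share of all genes 2-fold lower in K4me3 was 4.01%, and the share with higher K4me3 was 0.0% in H3K18R, 0.279% in H3K36R, 0.607% in set2 and 0.904% in eaf3. With no minimum it was 0.901% in H3K18R. For K79me3 in set2 and eaf3 no value is given, since the reference held 0 to 4 reads per gene. Depth also limits the pairs and the K4me3 of single nucleosomes, which held few reads.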
